A study of Mus musculus with 8 samples.

Results

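Genes of the cytosolic ribosome, 86 by symbol, were examined in embryonic mouse ventricles in which neuregulin-1 was overproduced. Members were taken by symbol from the 53465 genes of the deposited table: *Rpl* or *Rps* followed by a number, *Rplp0*, *Rplp1*, *Rplp2* and *Rpsa*, without pseudogene symbols and without the S6 kinases. Of 93 symbols, 86 had at least 10 counts in at least 4 of the 8 libraries, 51 of the large and 35 of the small subunit. The other 7 (*Rpl39l*, *Rps3a3*, *Rpl10l*, *Rps3a2*, *Rps12l1*, *Rpl6l* and *Rpl32l*) did not pass. Of the 86, 77 are canonical ribosomal proteins (46 large, 31 small) and 9 are paralogues or genes that only share the name. Among the 9, *Rps4l* and *Rpl37rt* are annotated as transcribed processed pseudogenes. Poly(A) RNA of heart ventricles at E15.5 was sequenced in 4 *Nrg1GOF* and 4 WT libraries, with 1 ventricle per replicate. *Nrg1GOF* is the genotype labelled Rosa26Nrg-1;Nkx5.5-Cre, an *Nrg1* transgene at the Rosa26 locus recombined by a Cre that the series title names Nkx2.5-Cre, a driver of cardiac progenitor cells. WT embryos are given as wild type with no further allele, so Cre alone and the unrecombined transgene have no control here. The ventricle holds myocardium, endocardium, epicardium, fibroblasts and blood, so that fewer cells of a type and less RNA per cell cannot be told apart.

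Most ribosomal proteins are needed in equal amounts, with the stalk proteins present in more copies, and cells coordinate them mainly at translation. Their mRNAs are short, very abundant, and begin with a run of pyrimidines, the 5′ terminal oligopyrimidine (TOP) motif, through which mTORC1 signalling sets how well they are translated. Neuregulin-1 acts through ErbB receptors on pathways that feed into mTORC1 and S6 kinase. Because these mRNAs are abundant in the germline, they have been copied back into the genome many times as processed copies without introns, and short reads cannot always tell a gene from its copies.

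Library totals were 8038641 counts in *Nrg1GOF* library 4 and between 18754259 and 26786039 in the other 7, and WT libraries 1 and 2 resembled each other more than they resembled WT libraries 3 and 4, which also formed a pair. *Nrg1* was at 59.7 to 63.6 CPM in *Nrg1GOF* and 3.07 to 4.46 CPM in WT (counts-per-million of the TMM-scaled library). Of 15580 genes tested with the quasi-likelihood test of edgeR, 4467 (28.7%) had an adjusted p under 0.05 and are described as called, 15.9% of those tested higher and 12.8% lower in *Nrg1GOF*. Among markers of the cells of the ventricle, 5 of 8 ventricular cardiomyocyte genes were lower, *Myh7* among them, while 5 of 8 atrial, 3 of 6 endothelial, 7 of 7 fibroblast and epicardial and 5 of 5 macrophage genes were higher. The atrial list includes *Nppa*, which a published study using this model names as a marker of ventricular trabeculae. The summed level of the fibroblast and epicardial markers was 5595 to 7268 CPM in *Nrg1GOF* and 3115 to 4209 CPM in WT, and that of the macrophage markers 60.5 to 68.7 against 28.6 to 33.2 CPM. Of 10 red blood cell genes 0 were called, with a summed level of 5446 to 8911 CPM in *Nrg1GOF* and 4428 to 13048 CPM in WT. The part of cell composition in the ribosomal protein values was not tested.

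Against this background the ribosomal protein mRNAs were close to level. Of the 86 members 2 were called (2.33%), where 28.7% of all genes tested were: *Rpl10* was higher and *Rpl3* lower, and 0 of the 35 small subunit genes were called. DESeq2 and limma-voom called the same 2 genes, while the likelihood ratio test of edgeR and the fit with the replicate number as a block called *Rpl3* alone. Without adjustment, 3 members, 0 of them of the small subunit, had a p under 0.05, against 6126 of 15580 genes. The median log2 fold change was 0.042 for large subunit and 0.025 for small subunit genes, and -0.012 for all genes tested. Of the members, 65 were above 0 and 21 below. Without *Nrg1GOF* library 4 the large and small subunit medians were -0.019 and -0.039. The intervals bounded the change, but by median SE they were not tighter than those of other abundant genes. The median SE was 0.090 for the members and 0.066 for the 2141 genes with a mean of 100 CPM or more. For 58 of 86 members (67.4%) the whole 95% confidence interval lay within 1.25-fold in either direction, against 28.8% of all genes and 48.0% of the 2141 genes with a mean of 100 CPM or more, of which 40.8% were called. When the counts of processed copies were added to their parent gene, this held for 68 members (79.1%), and for 77 of the 77 canonical genes the interval lay within 1.5-fold. With copies added, *Rpl10* was the 1 member called, where 28.8% of 15519 genes were.

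**Figure D1:**
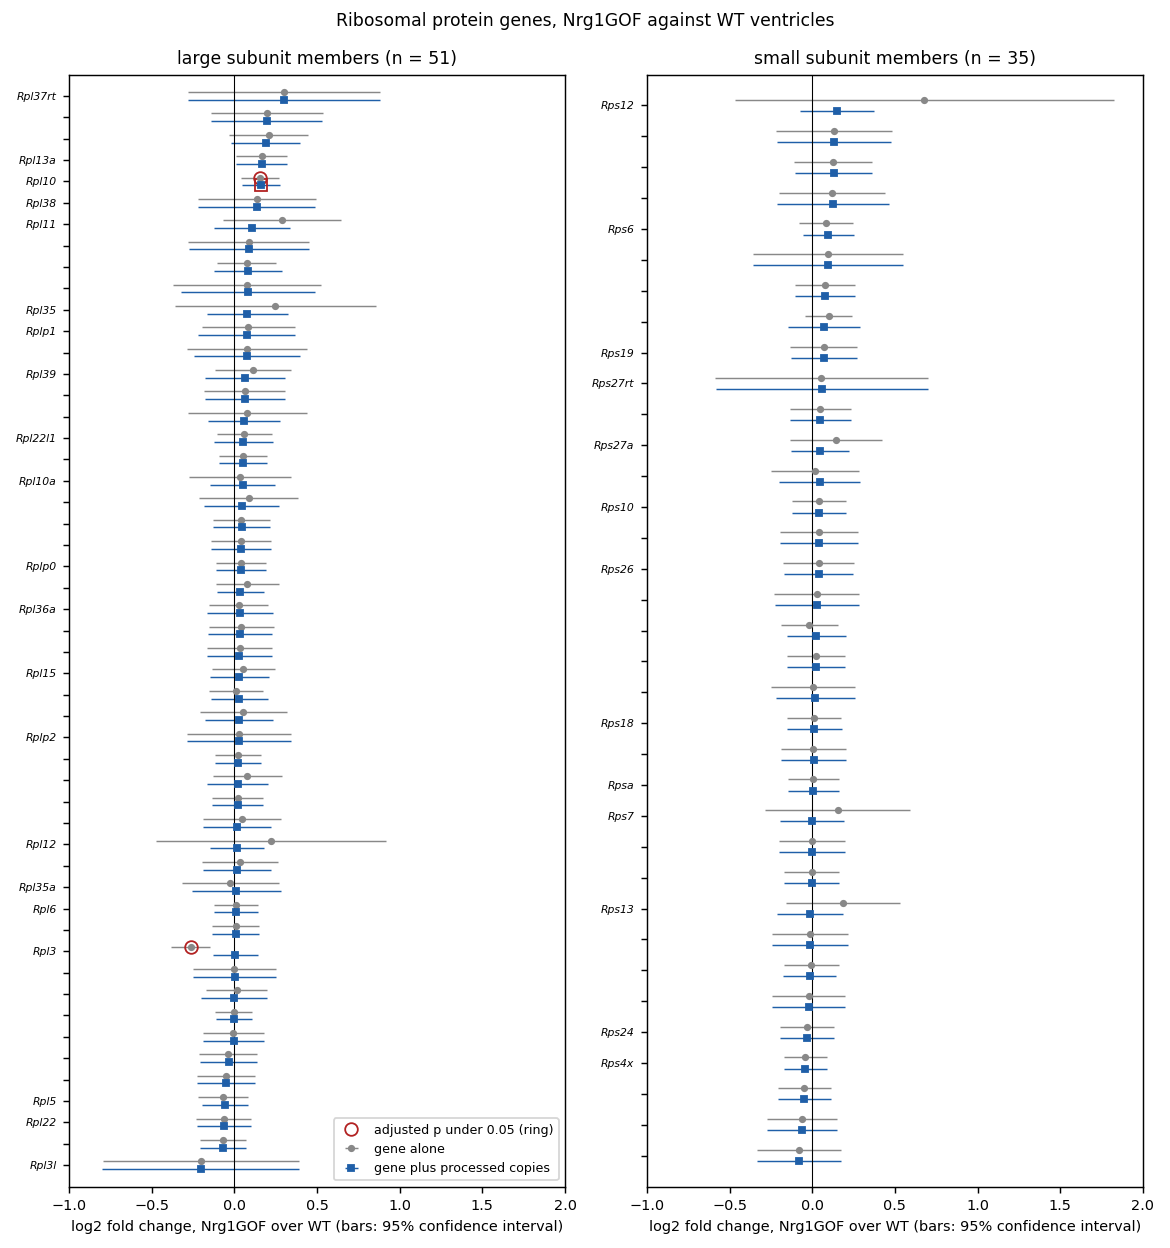
Log2 fold change of *Nrg1GOF* over WT with its 95% confidence interval for the 51 large and 35 small subunit members, for the gene alone (circles) and for the gene plus its processed copies (squares), with the members named in the text labelled. Rings mark an adjusted p under 0.05, and only *Rpl3* (gene alone) and *Rpl10* (both) carry one, while *Rps12* has the widest interval as a gene and a narrow one with its copies.

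The most abundant member was *Rplp0*, the scaffold of the stalk of the large subunit, which recruits elongation factors. In library order from 1 to 4, as for all values listed here, it was at 1065, 1125, 955 and 1152 CPM in *Nrg1GOF* and 1061, 1086, 999 and 1033 CPM in WT. The groups overlapped, with a log2 fold change of 0.04 (95% confidence interval -0.11 to 0.19). Per kilobase of transcript, with copies added, the highest WT levels were 772 CPM per kb for *Rps4x*, 769 for *Rplp0* and 742 for the stalk protein gene *Rplp1*, and the lowest were 0.62 for *Rpl3l*, 5.44 for *Rps27rt* and 6.36 for *Rpl37rt*. *Rps4x* is X-linked, and its log2 fold change was -0.04 (interval -0.17 to 0.09). *Rplp1* and *Rplp2* had intervals of -0.20 to 0.37 and -0.29 to 0.34 around 0.08 and 0.03. *Rpsa*, which is also a laminin receptor precursor, had a log2 fold change of 0.01 from 905 CPM in WT.

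*Rps6* encodes the substrate of S6 kinase. It was at 479, 535, 470 and 577 CPM in *Nrg1GOF* and 513, 496, 460 and 478 CPM in WT, and the groups overlapped (log2 fold change 0.08, interval -0.08 to 0.25). *Rpl38*, which is required for the translation of particular Hox mRNAs in the mouse embryo, had a log2 fold change of 0.13 with the wider interval of -0.22 to 0.49. Loss of 1 copy of any of several ribosomal protein genes impairs red cell production in Diamond-Blackfan anaemia. Of 8 such genes examined (*Rpl5*, *Rpl11*, *Rpl35a*, *Rps7*, *Rps10*, *Rps19*, *Rps24* and *Rps26*), 0 were called, where 28.7% of all genes tested were. Their log2 fold changes lay between -0.07 for *Rpl5* and 0.29 for *Rpl11* (smallest edgeR adjusted p = 0.214). With copies added these genes lay between -0.06 and 0.11. Of the 9 paralogues and look-alikes 0 were called, against the same 28.7% of all genes (smallest edgeR adjusted p = 0.181). Of these, *Rpl3l*, the striated muscle paralogue of *Rpl3*, was at 0.60 to 0.90 CPM in *Nrg1GOF* and 0.73 to 0.98 CPM in WT, against 452 CPM for *Rpl3* in WT. *Rpl22l1*, a paralogue that can stand in for *Rpl22*, was at 54.7 ± 4.95 CPM in *Nrg1GOF* and 52.2 ± 3.51 CPM in WT (SD, n = 4 each), and *Rpl22* itself at 195 ± 19.7 and 204 ± 9.61 CPM. Outside the symbol rule, the ribosomal protein genes *Fau* and *Rack1* had log2 fold changes of 0.30 and 0.06 and were not called.

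*Rpl10*, an X-linked gene whose protein is among the last to join the 60S subunit, was the member called higher. It was at 532, 560, 514 and 563 CPM in *Nrg1GOF* and 488, 468, 489 and 503 CPM in WT. Every *Nrg1GOF* library lay above every WT library, as was the case in either direction for 30.7% of all genes tested. The log2 fold change was 0.15 (SE 0.05), and the edgeR adjusted p of 0.0484 lay just inside the threshold. It lost the call in 7 of the 8 fits that left out a library (edgeR adjusted p from 0.0684 to 0.145), keeping it without *Nrg1GOF* library 3. The X-linked members other than *Rpl10* overlapped between the groups, with log2 fold changes of 0.03 for *Rpl36a* and 0.11 for *Rpl39* (interval -0.12 to 0.34). *Rpl13a*, a component of the complex that silences inflammatory mRNAs, had the next smallest p among large subunit genes. It had a log2 fold change of 0.16 (interval 0.01 to 0.32, edgeR adjusted p = 0.109), and the libraries of the groups overlapped.

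*Rpl3*, whose protein lies near the peptidyl transferase centre, was the member called lower. The gene (GRCm38 chr15:80077791-80091868, minus strand) was at 350, 379, 384 and 392 CPM in *Nrg1GOF* and 439, 440, 463 and 466 CPM in WT. The groups did not overlap. The log2 fold change was -0.27 (SE 0.05, edgeR adjusted p = 0.00484), and against WT libraries 1 and 2 alone or with the WT pairs summed the adjusted p was 0.0556 and 0.0589. The processed copy *Rpl3-ps1* on chromosome X moved the other way, at 413, 393, 292 and 402 CPM in *Nrg1GOF* and 322, 325, 265 and 274 CPM in WT, a log2 fold change of 0.34 (SE 0.12, edgeR adjusted p = 0.0525). Gene and copy together were at 763, 772, 676 and 795 CPM in *Nrg1GOF* and 761, 765, 728 and 741 CPM in WT, a log2 fold change of 0.0050 (interval -0.13 to 0.14, edgeR adjusted p = 0.964). The share of these counts in the copy was 43.2% to 54.2% in *Nrg1GOF* and 36.4% to 42.5% in WT.

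The sequences of the pair are shown because gene and copy differ at only 2 bases of the stretch they share. Over the 1210 bases of *Rpl3-ps1* the copy differed from transcript Rpl3-201, which has 1351 bases, by 2 substitutions, C137A and T866C, counted from the first base of Rpl3-201, and 1033 of its 1151 stretches of 60 bases, the read length, were also in *Rpl3*. Both differences lie in the coding sequence. The windows around them are shown 5′ to 3′, with the differing base in capitals, from GRCm38 chr15:80082500-80082559 and chr15:80079724-80079783 (minus strand) for *Rpl3* and from chrX:13202598-13202657 and chrX:13203327-13203386 (plus strand) for the copy.
Rpl3, first difference: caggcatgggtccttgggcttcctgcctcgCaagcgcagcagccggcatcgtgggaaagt
Rpl3-ps1, first difference: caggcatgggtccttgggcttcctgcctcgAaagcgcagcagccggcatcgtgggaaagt
Rpl3, second difference: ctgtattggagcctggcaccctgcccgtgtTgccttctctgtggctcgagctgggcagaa
Rpl3-ps1, second difference: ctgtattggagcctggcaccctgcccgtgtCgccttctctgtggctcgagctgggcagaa
Within the shared stretch, a read that covers neither base fits both places equally, while reads from the ends of Rpl3-201 that the copy lacks fit the gene. Whether the embryos carried other bases at these sites was not tested, since reads were not used here.

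Copies took a large part of the signal of several members. By sequence or symbol 719 copies were matched to 81 members, and 61 of them had enough counts to be tested. In 22 members (16 large, 6 small) copies held 10% or more of the counts of gene and copies, and in 8 they held more than the gene did. The 3 highest shares were 83.8% for *Rps7*, 81.9% for *Rpl12* and 79.5% for *Rpl5*. For *Rpl5*, whose protein with that of *Rpl11* binds Mdm2, the gene held 144 ± 8.97 CPM in WT and 138 ± 10.2 CPM in *Nrg1GOF*, and its copy *Gm15500* 560 ± 16.7 and 540 ± 53.5 CPM (SD, n = 4 each). This copy was identical to transcript Rpl5-201 over 894 bases, and 959 of its 960 stretches of 60 bases were in *Rpl5*. Across members, the median share of a gene's own 60-base stretches that occur in another gene was 49.6%, and 3 members had none.

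How the counts were divided varied from library to library. *Rps12* was the extreme case, at 77.5, 188, 208 and 393 CPM in *Nrg1GOF* and 136, 74.4, 66.5 and 260 CPM in WT. Its copies held 73.2%, 49.7%, 34.0% and 1.81% of the summed counts in *Nrg1GOF* and 57.9%, 74.9%, 77.1% and 22.0% in WT. The main copy, *Rps12-ps3*, was identical to transcript Rps12-203 over 494 bases. The gene alone had a log2 fold change of 0.68 with an interval of -0.47 to 1.83, while gene and copies together were at 289, 373, 315 and 400 CPM in *Nrg1GOF* and 322, 296, 291 and 333 CPM in WT, a log2 fold change of 0.15 (interval -0.08 to 0.37). The same narrowing was seen in *Rpl12*, from -0.47 to 0.92 for the gene to -0.15 to 0.18 with its copies. Among the 22 members the median within-group SD of log2 levels was 0.194 for the gene and 0.145 for gene and copies, and it was smaller with copies in 17. In the other 64 members it was 0.141 and 0.138. The share held by copies separated the genotypes without overlap in 1 of the 22 families, *Rpl3*.

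In *Rps7*, *Rpl12* and *Rpl35* the gene held the smaller part of the counts and varied more between libraries, relative to its level, than its main copy did, which was not the case for *Rpl5* in *Nrg1GOF*. *Rps7*, another Mdm2-binding ribosomal protein gene, was at 55.1, 83.1, 56.9 and 93.7 CPM in *Nrg1GOF* and 78.8, 61.9, 47.5 and 69.3 CPM in WT. Its copy *Gm6472* on chromosome X was at 357, 346, 287 and 369 CPM in *Nrg1GOF* and 361, 351, 337 and 341 CPM in WT. The groups overlapped for both, and the sum had a log2 fold change that rounded to 0 (interval -0.19 to 0.19). *Gm6472* differed from transcript Rps7-203 by T229G, G251A and G326T over 582 bases, and 75.8% of its 60-base stretches were in *Rps7*. Positions 221 to 280 of Rps7-203 and the matching copy (GRCm38 chrX:152910044-152910103, minus strand) are shown with the differing bases in capitals, and the *Rps7* window spans an intron on chromosome 12.
Rps7: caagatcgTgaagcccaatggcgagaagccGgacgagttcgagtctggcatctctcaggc
Gm6472: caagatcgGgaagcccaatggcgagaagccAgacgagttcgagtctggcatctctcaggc
*Rpl12*, a gene of the stalk base, was at 30.3, 73.5, 80.9 and 99.4 CPM in *Nrg1GOF* and 82.5, 54.1, 44.9 and 59.5 CPM in WT, while its copy *Gm10275* stayed between 239 and 307 CPM in *Nrg1GOF* and 277 and 299 CPM in WT. *Gm10275* was identical to transcript Rpl12-203 over 495 bases. *Rpl35* was at 31.8, 60.8, 46.6 and 82.2 CPM in *Nrg1GOF* and 61.3, 38.9, 33.1 and 49.9 CPM in WT, a log2 fold change of 0.25 for the gene and 0.08 with its copy *Gm2000*. In *Rps13* the log2 fold change went from 0.19 to -0.01 and in *Rps27a*, which encodes a fusion of ubiquitin with a ribosomal protein, from 0.14 to 0.05 when copies were added.

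*Rpl11* was not called with or without its copies, but its copy *Gm10288* was lower, at 115, 110, 106 and 101 CPM in *Nrg1GOF* and 136, 121, 130 and 128 CPM in WT (log2 fold change -0.25, SE 0.06, edgeR adjusted p = 0.00953). A second copy, *Gm10036*, was called higher at a low level, with 5.57 ± 2.29 CPM in *Nrg1GOF* and 0.52 ± 0.42 CPM in WT (SD, log2 fold change 3.38, SE 0.56, edgeR adjusted p = 0.00161). *Rpl11* itself was at 176, 232, 172 and 289 CPM in *Nrg1GOF* and 194, 184, 149 and 182 CPM in WT, and the sum had a log2 fold change of 0.11 (interval -0.12 to 0.34). Of the 61 copies tested, 5 were called higher and 3 lower (13.1%, against 28.7% of all genes), and 4 of these 8 were copies of *Rpl15* that were listed at 0 in 3 or 4 WT libraries. Those 4 were called higher and passed the count filter only through *Nrg1GOF*, where they are high, so the filter favoured that direction. *Rpl15-ps3*, of the same family, was among the 3 called lower.

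**Figure D2:**
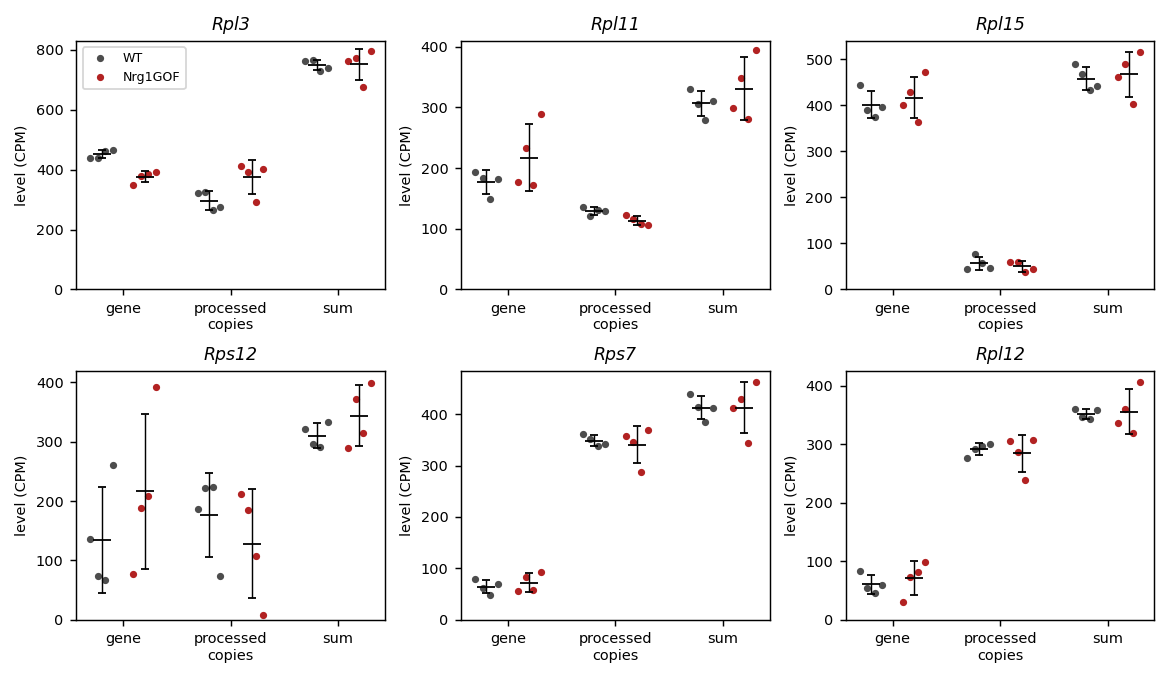
Level in CPM of the gene, of its processed copies and of their sum in each WT (grey) and *Nrg1GOF* (red) library for 6 members, with the mean and SD of 4 libraries. The *Rpl3* gene is lower and its copy mostly higher in *Nrg1GOF* while the sums overlap, and the *Rps12* values spread widely apart from their sum.

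The *Rpl15* copies differ in a stretch that a read can span. *Rpl15* and its copies together were at 462, 491, 402 and 516 CPM in *Nrg1GOF* and 489, 468, 434 and 443 CPM in WT. Within this sum *Rpl15-ps3* had 44.7 to 76.8 CPM in WT and was listed at 0 in 3 *Nrg1GOF* libraries, while *Gm10020* was at 24.6 to 46.0 CPM in *Nrg1GOF* and listed at 0 in all 4 WT libraries. *Rpl15-ps3* was identical to transcript Rpl15-203 over 615 bases. *Gm10020* differed from it by A292G and C338A, counted from the first base of Rpl15-203, and the lines below give positions 285 to 344 with differing bases in capitals. The copies lie at GRCm38 chr9:22186014-22186073, chr15:52478021-52478080 and chr1:51941054-51941113, all on the minus strand, and the *Rpl15* window spans an intron on chromosome 14.
Rpl15: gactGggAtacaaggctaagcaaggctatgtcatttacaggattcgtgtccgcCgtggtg
Rpl15-ps3: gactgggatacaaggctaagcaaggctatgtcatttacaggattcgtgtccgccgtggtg
Gm10020: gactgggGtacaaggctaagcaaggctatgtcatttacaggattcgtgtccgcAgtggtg
Gm8420: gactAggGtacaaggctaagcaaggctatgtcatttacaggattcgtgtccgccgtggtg
The sum had a log2 fold change of 0.03 (interval -0.15 to 0.21), while the counts of *Rpl15-ps3* and of *Gm10020* did not overlap between the groups. Whether the embryos differ in sequence here was not tested.

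The subunits were then compared. The 86 members held 2.21%, 2.56%, 2.21% and 2.72% of all counts in *Nrg1GOF* and 2.40%, 2.23%, 2.18% and 2.36% in WT. The means were 2.42% ± 0.26 and 2.29% ± 0.11 (SD, n = 4 each), so the groups overlapped, and *Nrg1GOF* varied more. The ratio of large to small subunit counts was 1.33 to 1.38 in *Nrg1GOF* and 1.34 to 1.35 in WT. The subunits therefore moved together from library to library. With copies added the shares were 2.75% ± 0.27 and 2.62% ± 0.10.

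**Figure D3:**
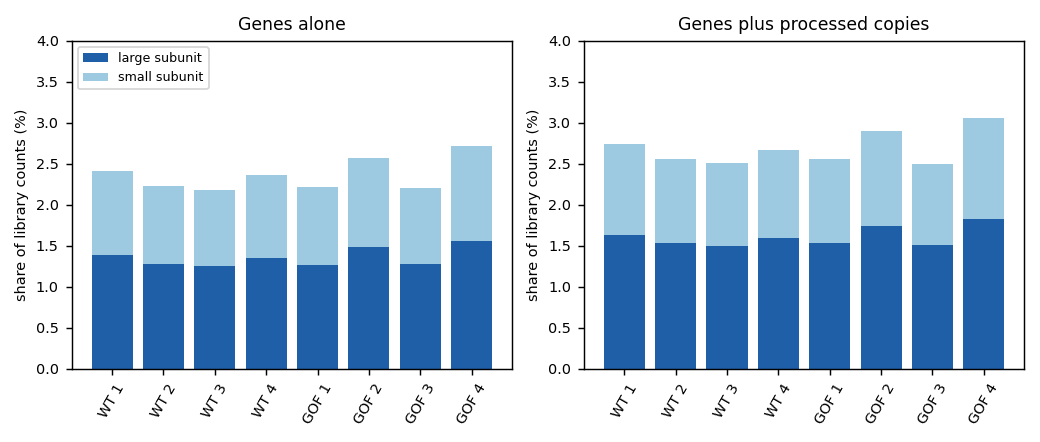
Percent of all counts of each library assigned to large (dark) and small (light) subunit genes, for the genes alone and with processed copies. The bars of *Nrg1GOF* libraries 2 and 4 are the tallest, at 2.56% and 2.72% for genes alone, and those of *Nrg1GOF* libraries 1 and 3 stand with the WT bars.

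The level of the members differed from library to library, and in some libraries by transcript length. With copies added, the median log2 level of the members relative to the WT mean was -0.09, 0.10, -0.14 and 0.24 in *Nrg1GOF* libraries 1 to 4 and 0.09, -0.03, -0.08 and 0.02 in WT. For the 28 members under 600 nt it was -0.15, 0.15, -0.15 and 0.28 in *Nrg1GOF*, and for the 22 members of 1000 nt or more -0.06, 0.06, -0.15 and 0.15. In *Nrg1GOF* libraries 1, 2 and 4 the short members thus lay farther from 0 than the long ones, and in library 3 both lay equally low. Among 123 other genes under 600 nt with 10 CPM or more, the medians in *Nrg1GOF* were -0.28, -0.01, -0.22 and 0.14, and among 9348 other genes of 1000 nt or more they lay between -0.03 and -0.02. Across 84 members, which share each library and are not independent, the correlation of log2 transcript length with this deviation ranged from -0.545 in *Nrg1GOF* library 2 to 0.303 in WT library 2, and was 0.27 in *Nrg1GOF* library 1 and -0.316 in library 3. The small shift of the members above 0 varied with the libraries used. With copies added, 21 of 86 members were below 0 with all 8 libraries, 63 without *Nrg1GOF* library 4, 39 without WT library 3, 38 without *Nrg1GOF* library 2 and 6 without *Nrg1GOF* library 3, and leaving out 1 of the other 4 libraries gave 14 to 25.

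**Figure D4:**
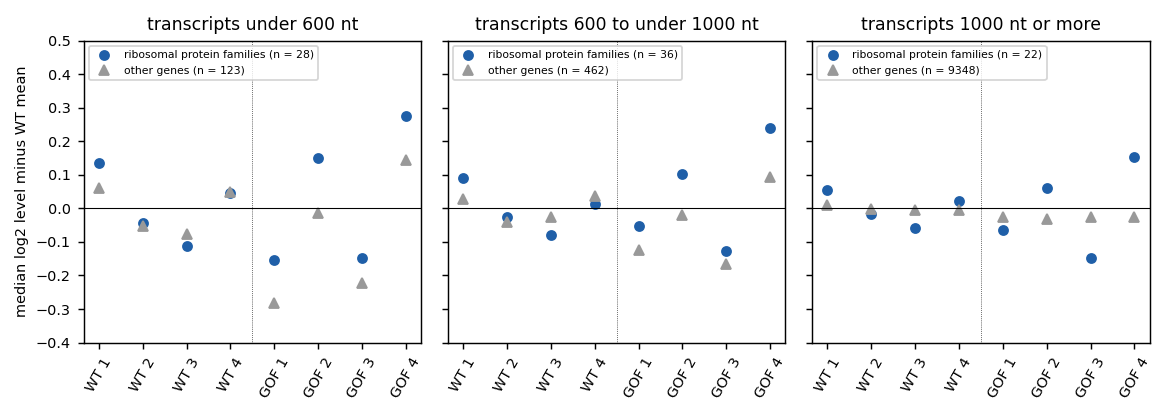
Median log2 level minus the WT mean in each library for ribosomal protein genes with copies (circles) and other genes of 10 CPM or more (triangles), in 3 classes of transcript length. In the shortest class both sets are low in *Nrg1GOF* libraries 1 and 3 and high in library 4, and in the longest class the other genes stay near 0.

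RefSeq start sites (GRCm38.p6) were found for 65 of the 86 members and were searched for the TOP motif. A run of 5 or more pyrimidines opening with C within 10 bases either side of the start was present in 38 of the 65 (58.5%), against 34.4% of 27025 genes and 44.9% of 69 mitochondrial ribosomal protein genes, and in 58.8% of canonical large and 60.9% of canonical small subunit genes. The run was counted from the C nearest the start that opened one, and in some members, such as *Rpl10a* and *Rpl6*, that C lay before the start. The ETS motif CGGAAG, on either strand of the 300 bases around the start, was in 43 of 65 members (66.2%), against 18.8% of all genes, and in 56.5% of the mitochondrial ribosomal protein genes. The sequences below run from 10 bases before the start to 16 bases into the transcript, with the run as counted in capitals. In each of them pyrimidines also stand directly before the capitals, so the whole pyrimidine stretch begins before the start.
Rps6, chr4:86857352-86857377, minus strand: gaagtcgggcCTCTTTTTCgtgacgc
Rpl35, chr2:39005116-39005141, minus strand: ccgccctttcCTCTTTCTCTCgaacc
Rpl38, chr11:114668570-114668595, plus strand: aagcctcgttCTTTCCCCgttctctt
Rps18, chr17:33955650-33955675, minus strand: cacttccgctCTCTCTTCCacaggag
A match is a description of these bases and says nothing of translation, which was not measured.

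Other genes of the translation machinery were given by list, and their counts stand beside 15.9% of all genes called higher and 12.8% called lower. Of 23 further TOP genes 1 was called, *Naca* of the nascent polypeptide-associated complex, which fell by 0.40 on the log2 scale (SE 0.08, edgeR adjusted p = 0.00516). Of 36 initiation factors 1 was higher and 3 were lower (11.1% called), and of 10 elongation factors 1 was higher and 2 lower (30%), a share close to the 28.7% of all genes, with *Eef1a2*, the striated muscle form of eEF1A, at -0.46 and the eEF2 kinase *Eef2k* at -0.39. Of 67 ribosome biogenesis genes 1 rose and 4 fell (7.46% called), the largest fall being -0.25 for the 60S export adaptor *Nmd3*. Of 35 genes of RNA polymerases I and III 4 were lower (11.4%), among them the polymerase I subunit gene *Polr1e* (-0.44, SE 0.08) and *Maf1* (-0.38, SE 0.06), a repressor of polymerase III. Of 36 mTORC1 and S6 kinase genes 2 were higher and 6 lower, and their 22.2% called was below the share of all genes. Those higher were *Rps6ka2* and *Rps6ka4* of the *Rps6ka* kinase family, with log2 fold changes of 0.43 (SE 0.07) and 0.33 (SE 0.08). *Rragd*, a Rag GTPase of mTORC1, had a log2 fold change of -0.63 (SE 0.07), *Mtor* of -0.31 (SE 0.07) and the translation repressor *Eif4ebp1* of -0.31 (SE 0.10). Among 10 genes of nucleolar stress and p53, its targets and *Trp53* itself among them, 4 rose (40%), led by the cell cycle inhibitor *Cdkn1a*, from 33.1 ± 2.64 to 63.3 ± 6.50 CPM (SD, n = 4 each, log2 fold change 0.93).

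Genes of the mitochondrial ribosome, which translates the mRNAs of the mitochondrial genome, were set beside those of the cytosolic one. Of 78 tested, 0 were higher and 33 (42.3%) lower, where 12.8% of all genes were lower, with a median log2 fold change of -0.20 against 0.041 for the 86 cytosolic members. *Mrpl47* fell from 37.4 ± 1.22 to 26.9 ± 0.57 CPM (SD, n = 4 each, log2 fold change -0.47, edgeR adjusted p = 0.000157) and *Mrpl42* from 112 ± 5.56 to 83.3 ± 8.06 CPM (-0.43, edgeR adjusted p = 0.00191). Both comparisons share the same 8 libraries, and the difference between the lists was not tested. The ventricular cardiomyocyte markers were lower in the same libraries (5 of 8 called, median log2 fold change -0.39, summed level 30740 to 38875 CPM in *Nrg1GOF* and 41196 to 43264 CPM in WT), while the fibroblast and epicardial and the macrophage markers were higher (medians 0.76 and 1.01), and their part in the mitochondrial ribosome values was not tested. Counts of the mitochondrial genome made up 3.10% to 4.35% of each library in *Nrg1GOF* and 4.30% to 5.78% in WT, so that the groups overlapped, with WT libraries 1 and 2 below WT libraries 3 and 4.

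**Figure D5:**
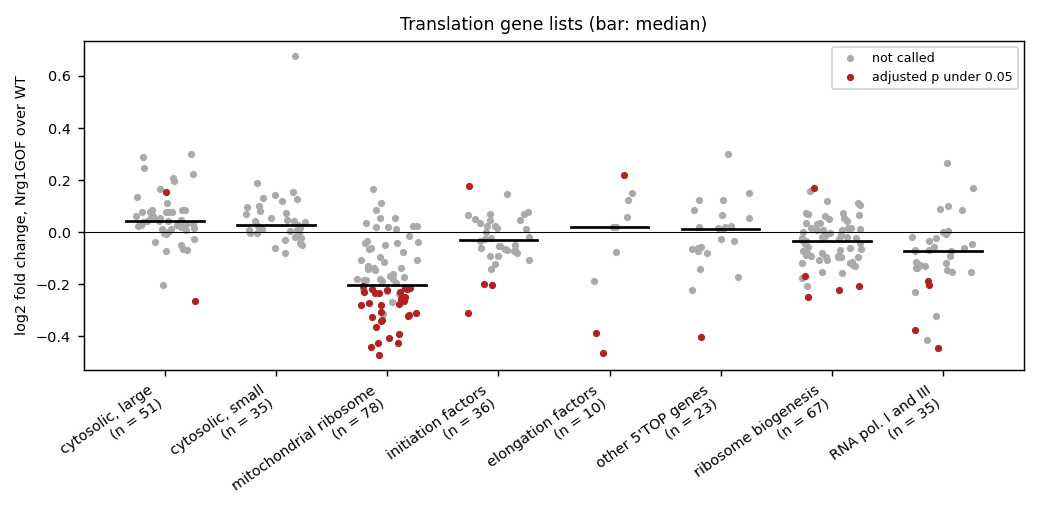
Log2 fold change of *Nrg1GOF* over WT for each gene of 8 translation lists, with called genes in red and the median as a bar. The 51 large and 35 small cytosolic members centre close to 0, with 2 red points, while 33 of the 78 mitochondrial ribosomal protein genes are red and all of these are below 0.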

How the data were processed

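The members and gene lists were chosen with earlier results of these data known. For 8 libraries the authors deposited a table of expected counts (submitters' processing notes name cutadapt and RSEM 1.3.1 on GRCm38, and the table's name Ensembl release 91). The strand setting is not given in the sources used here, and 24 members overlap a gene on the opposite strand. Libraries used 100 ng of RNA and single reads of 60 bases. RSEM divides a read that fits several genes by estimated abundance. Of the member values 74.3% held a decimal part of any size as deposited, against 8.42% to 13.2% of the values of all listed genes per library, zeros included. A processed copy was a gene matched to a member by BLAST+ 2.17.0 (95% identity over 80% of its length) or by symbol.

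Expected counts were rounded, filtered with filterByExpr and scaled by the trimmed mean of M-values (TMM), and the genotypes were compared by the two-sided quasi-likelihood F-test of edgeR 4.0.16 (R 4.3.3), with Benjamini-Hochberg adjustment over all genes tested. Log2 fold changes are *Nrg1GOF* over WT, and intervals are at 95%. Lengths, coordinates and sequences came from GENCODE M21 (GRCm38) and start sites from RefSeq, while the counts were made on an earlier annotation. *Rps15a* and *Rps20*, annotated with very long untranslated ends, were left out of ranks and correlations by length. On simulated counts for 15382 genes the test recovered 23 of 57 changes of 0.5 (40.4%), 59 of 67 of 1 (88.1%) and 73 of 75 of 2 (97.3%) on the log2 scale, with 13 false calls. Far more genes were called in the data than were changed in the simulation. The adjusted p depends on that number, so these shares do not give the recovery in this comparison. A library's floor of 3 counts stood for 0.112 to 0.373 CPM of its total and covers counting error only. The labels name no litter or batch, so p-values measure the spread between these ventricles. Named members were the 5 highest and 5 lowest log2 fold changes per subunit, the 3 highest and lowest levels per length, the paralogues, X-linked genes, 8 Diamond-Blackfan anaemia genes, *Rps6*, *Rpl38*, the stalk genes, *Rpsa*, *Rack1* and *Fau*, and members whose call changes when copies are added. *Rpl13a* and the members shown for their copies or start sites were named after their values were seen. Alternatives were other tests (likelihood ratio, DESeq2 1.42.0, limma-voom 3.58.1), scalings, filters, thinning, an offset for GC content and length, a replicate block, each WT pair, summed WT pairs, added copies, a stricter threshold and leaving out each library. Some genes named by the rule are not reported here.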

Additional observations from a re-analysis of the deposited data

Results flagged for a closer look

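Of 132 groups of 4 values examined (named members, summed shares and totals), 2 held a library that lay apart from the rest by Dixon's 95% criterion (a gap of 0.922 and 0.864 of the range), where chance flags about 1 group in 20. *Rpl37rt*, a single-exon look-alike of *Rpl37*, reached 3.50 CPM in *Nrg1GOF* library 4, against 1.97 to 2.09 CPM in the other libraries of the group. The total of *Nrg1GOF* library 4 was 8038641 counts, against 20578081 to 22547833 in the other *Nrg1GOF* libraries. At that total 3 counts stand for 0.373 CPM. The part of depth in the *Rpl37rt* value was not tested.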

How the results depend on the processing

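Of 1030 recomputed values of single genes 1006 stayed on their side of the threshold in the same direction, 18 weakened, 5 strengthened and 1 reversed, while of 215 recomputed counts and summary values 150 stayed close and 65 moved. *Rpl3* was called in 25 of 28 alternatives. It lost the call against WT libraries 1 and 2 alone and with the WT pairs summed, and with processed copies added its log2 fold change was 0.0050, which follows from adding *Rpl3-ps1*, leaving 1 member called and 0 lower. *Rpl10* was called in 12 of 28. With the likelihood ratio test, relative log expression scaling, no filter, thinning to the smallest total, WT libraries 3 and 4 alone or an adjusted p under 0.01, 1 member (*Rpl3*) was called, 0 higher, and 0 with copies added, where 29.3%, 28.4%, 14.2%, 25.3%, 27.7% and 16.3% of all genes were called, in that order. With WT libraries 1 and 2 alone or the WT pairs summed, 0 were called in either direction or with copies added, where 18.6% and 15.3% of all genes were. Library total scaling, which moved the median of all genes from -0.012 to 0.033, gave 2 members higher, and 2 with copies added, where 28.2% of all genes were called. The offset for GC content and length called 5 members, 4 of them higher, and 6 with copies added, where 33.6% of all genes were called. The cause was not tested. Leaving out each library gave 1 to 3 members called, 0 to 2 higher, and 0 to 2 with copies added, and the 3 came without *Nrg1GOF* library 3. These fits called 20.4% to 27% of all genes. Over these fits the large subunit median ranged from -0.019 to 0.10 and the small from -0.039 to 0.091, with the lowest values without *Nrg1GOF* library 4. The members' share of counts, 2.29% in WT and 2.42% in *Nrg1GOF* for the genes alone, was 2.62% and 2.75% with copies added. For the genes alone after mitochondrial and globin counts were taken out of the total, it was 2.44% and 2.54%.

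With the replicate number as a block 1 member was called (*Rpl3*), 0 higher, and 0 with copies added, where 29% of all genes were called, while *Rpl10* had a log2 fold change of 0.15 and an edgeR adjusted p of 0.0752. The block together with the offset called 6 members, 5 higher, and 4 with copies added, where 34.6% of all genes were called (35.2% with copies added). Deviations from the group means correlated at 0.0492 to 0.199 for equal numbers and at -0.263 to 0.187 for different numbers, so the numbers were not taken to pair the libraries. Depth limits the lowest members most, *Rpl3l*, *Rps27rt* and *Rpl37rt*, in *Nrg1GOF* library 4.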
